A study of Homo sapiens with 3 samples.

Results

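The genes described here code for feedback inhibitors of the receptor tyrosine kinase to ERK pathway: the Sprouty genes SPRY1, SPRY2 and SPRY4, the SPRED genes SPRED1, SPRED2 and SPRED3, and the MAP kinase phosphatase genes DUSP4, DUSP5, DUSP6 and DUSP7. They were taken by name, and all 10 were found once each among the 26485 entries of the count table. The table covers CAMA1, a human cell line established from breast cancer, which is estrogen receptor-positive and labelled as FGFR1-amplified. Cells of a passage below 10 were kept in dishes without estradiol for 48 h, and poly-A RNA was sequenced in 3 libraries described as biological replicates. There was no treated or estradiol-supplied group, so the values describe 1 line in 1 state and not a response.

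Signals from growth factor receptors such as the FGF receptors pass through adaptors, RAS, RAF and MEK to the kinase ERK, and ERK switches on genes whose products dampen the same pathway. Sprouty proteins bind adaptors and the ubiquitin ligase CBL near the receptor. SPRED proteins bring the RAS-inactivating protein neurofibromin, product of NF1, to the membrane. The phosphatases remove the activating phosphates from ERK, DUSP4 and DUSP5 in the nucleus and DUSP6 and DUSP7 in the cytoplasm. In many tissues SPRY2, SPRY4 and DUSP6 are used as readouts of FGF and ERK activity.

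The libraries held 26473939, 26592335 and 30745412 counts. All 9 luminal epithelial markers checked had a mean of 30.1 TPM or above and 5 basal markers summed to 13.3 to 14.9 TPM, while the summed level of 6 fibroblast markers was 10.2 to 10.8 TPM, nearly all of it COL1A1, that of 5 immune markers 8.67 to 11.1 TPM and that of 4 endothelial markers 0.0719 to 0.253 TPM. Of the markers of other cell types, PTPRC, CD3E, MS4A1, COL1A2, PDGFRA, LUM, DCN, CDH5 and KDR had at most 3 counts in each library. The immune markers LYZ and CD68 were detected at 6.48 and 3.08 TPM, and the endothelial marker VWF had 6 to 11 counts. TPM, a transcript abundance, is the count divided by gene length and scaled to a common total in each library, so levels of different genes can be compared per length. Errors are SD over libraries (n = 3) throughout. Whether the replicates came from separate cultures is not given, so p-values measure only the spread of these libraries, which may be technical. In bulk RNA, fewer cells expressing a gene and less RNA per cell cannot be told apart.

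The 5′ flanks of the genes at the ends of the range are shown first, because the Sprouty genes that were almost silent and the most abundant SPRED gene can be set side by side. Each line gives 120 bases directly upstream of a RefSeq gene start on GRCh38.p14, 5′ to 3′ on the minus strand that carries these genes, with CpG dinucleotides in capitals. SPRED2 has an outer start (chr2:65432600-65432719) and an inner start (chr2:65366779-65366898). SPRY2 is shown at its outermost start (chr13:80341127-80341246) and SPRY4 at its only listed start (chr5:142324248-142324367).
SPRED2 outer: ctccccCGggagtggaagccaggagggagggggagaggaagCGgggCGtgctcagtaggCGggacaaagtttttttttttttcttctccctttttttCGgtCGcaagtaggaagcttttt
SPRED2 inner: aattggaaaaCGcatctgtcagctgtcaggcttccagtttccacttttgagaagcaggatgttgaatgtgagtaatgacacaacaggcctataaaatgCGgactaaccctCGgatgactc
SPRY2: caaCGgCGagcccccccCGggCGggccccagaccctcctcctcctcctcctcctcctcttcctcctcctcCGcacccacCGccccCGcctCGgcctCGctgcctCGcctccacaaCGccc
SPRY4: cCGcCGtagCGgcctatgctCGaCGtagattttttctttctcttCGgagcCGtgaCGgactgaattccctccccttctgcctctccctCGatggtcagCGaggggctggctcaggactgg

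These flanks hold 6 CpG at the outer and 3 at the inner start of SPRED2, 11 at SPRY2 and 10 at SPRY4. Over the whole promoter window of 300 bases, of which 250 lie upstream and 50 downstream of the start, the numbers were 23, 4, 30 and 26. The windows of SPRY2 and SPRY4 shown thus held more CpG than both of SPRED2, but the other listed starts of SPRY2 held 15 and 6, fewer than the outer start of SPRED2. RefSeq listed 13 promoters for 8 of the 10 genes, and 9 of the 13 had at least 15 CpG, against 48.9% of 35116 promoters. DUSP4 and DUSP5 had no promoter in the table. The SPRY2 start shown lies 175 bases from the nearest exon start of the gene as counted. Which of the listed starts are used in CAMA1 was not tested.

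Motifs of factors that act at ERK target genes were searched on both strands of the same windows. The ETS motif CCGGAAG was in 1 of the 13 windows, at the inner start of SPRY1, and in 10.3% of all promoters. The AP-1 motif TGACTCA was in 2 windows, of SPRED2 and SPRED3, and in 4.95% of all. The octamer TGAATGAA, bound by the repressor CIC, was in 1, of SPRED3, and in 1.65% of all, and the octamer TGAATGGA was in none and in 1.03% of all. Neither the cyclic AMP response element TGACGTCA (1.85% of all) nor the CArG box of serum response factor (1.29% of all) was in any of them. The 3 matches that lay wholly upstream of a start are shown with up to 12 bases on each side and the match in capitals. In SPRED3 the CIC octamer began 192 bases (chr19:38389587-38389618) and the AP-1 motif 60 bases (chr19:38389719-38389749) before the inner start. That start lies 409 bases from the nearest exon start of the gene as counted. In SPRY1 the ETS motif began 67 bases before the start (chr4:123398307-123398337).
SPRED3 CIC: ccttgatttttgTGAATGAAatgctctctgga
SPRED3 AP-1: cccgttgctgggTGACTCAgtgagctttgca
SPRY1 ETS: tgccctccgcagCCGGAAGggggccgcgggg

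Among the 10 genes, transcripts in CAMA1 cells came mostly from SPRED2 and DUSP5, and the Sprouty genes added little. Of the members' summed TPM, the 3 SPRED genes made up 57.7 ± 2.47%, the 4 phosphatase genes 37.8 ± 2.93% and the 3 Sprouty genes 4.48 ± 0.708%. SPRED2 alone took 46.5 ± 2.21% and DUSP5 26.2 ± 3.61%. Each of these 3 sets of members was led by 1 gene. SPRY1 held 93.4 ± 1.78% of the TPM of the 3 Sprouty genes and SPRED2 80.5 ± 0.983% of that of the 3 SPRED genes. DUSP5 held 69.2 ± 5.12% of that of the 4 phosphatase genes. Of the 10 genes 8 had at least 10 counts in each library, the limit used for detection, while 67.3% of 18985 protein-coding genes did. The median of the 10 was 4.40 TPM and that of all protein-coding genes 8.07 TPM, and only SPRED2 and DUSP5 lay above the latter.

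**Figure D1:**
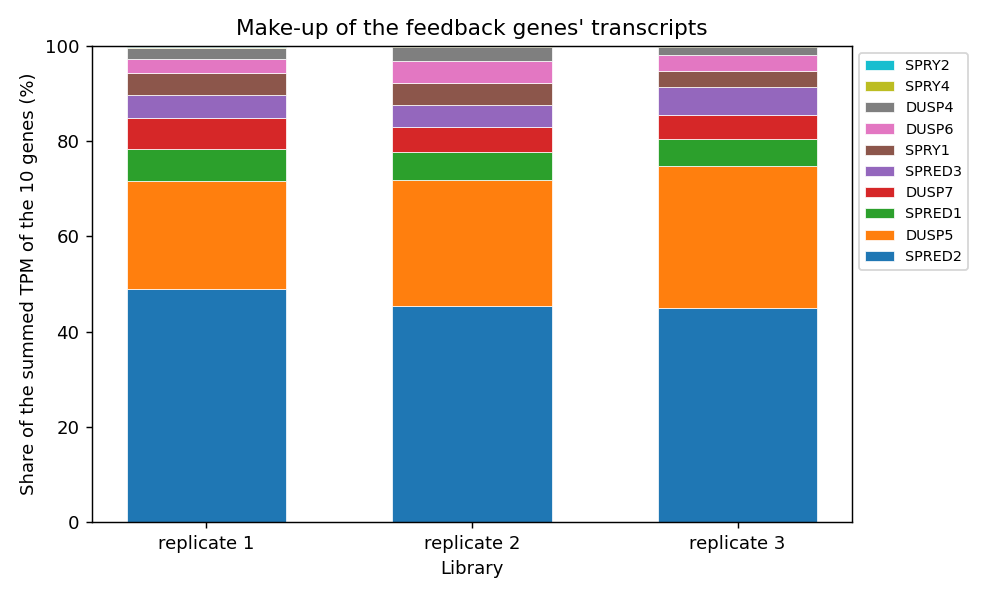
Stacked bars show, for each of the 3 libraries, the share of the summed TPM of the 10 genes that each gene contributed, in percent. SPRED2 (45.0 to 49.0%) and DUSP5 (22.5 to 29.8%) fill most of every bar, and SPRY4 and SPRY2 are too thin to see.

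SPRY1 was the only Sprouty gene above 1 TPM. Its level was 4.28, 4.41 and 3.22 TPM in replicates 1, 2 and 3, on 129, 134 and 115 counts (chromosome 4, 123396795 to 123403760, plus strand), with replicate 3 lowest. SPRY2, the family member best known as an FGF-induced antagonist, had 4, 1 and 2 counts, which is 0.191, 0.0475 and 0.0807 TPM (chromosome 13, 80335977 to 80340951, minus strand). The exact Poisson 95% interval was 1.09 to 10.2 counts in replicate 1 and 0.0253 to 5.57 counts in replicate 2, and these overlap. Overlap of intervals is not a test, and SPRY2 was too low to be tested for differences between libraries. SPRY4 had 9, 9 and 12 counts (0.164, 0.163 and 0.185 TPM; chromosome 5, 142310427 to 142325055, minus strand), and its 3 libraries lay within one another's counting intervals. Such intervals cover counting error only. From counts summed over libraries, SPRY4 exceeded SPRY2 per length 1.63-fold, with an exact 95% interval of 0.704 to 4.41 that includes equality. SPRY3, the remaining gene of the family and not among the 10, stood at 0.308 ± 0.0312 TPM on 57 to 61 counts.

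SPRED2 was the highest of the 10 genes and the steadiest between libraries. Its levels were 45.3, 44.4 and 42.7 TPM on 2088, 2063 and 2330 counts (chromosome 2, 65310851 to 65432522, minus strand), and 76.3% of protein-coding genes lay below it. SPRED1, which is mutated in Legius syndrome, had 6.31, 5.76 and 5.48 TPM (chromosome 15, 38252851 to 38357249, plus strand). SPRED3 had 4.35, 4.52 and 5.59 TPM (chromosome 19, 38390200 to 38399883, plus strand), with replicate 3 above the other libraries. Within libraries SPRED2 exceeded SPRED1 7.56 ± 0.332-fold and SPRED3 9.30 ± 1.47-fold, and it was the higher gene in 3 of 3 libraries in each case. The size of these folds depends on the length used. With the longest coding transcript as length SPRED2 was at 52.2, SPRED1 at 5.68 and SPRED3 at 5.45 TPM. Counts of SPRED1, SPRED3 and DUSP5 were not whole numbers, and how the authors divided reads was not stated.

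DUSP5, the nuclear phosphatase selective for ERK, was the highest of the 4 phosphatase genes among the members. It had 20.8, 25.7 and 28.2 TPM on 522, 648 and 838.5 counts (chromosome 10, 110497867 to 110511544, plus strand), with replicate 1 lowest. DUSP4, the other nuclear enzyme of the group, had 2.27, 2.89 and 1.55 TPM on 165, 212 and 134 counts, and replicate 3 was lowest. DUSP4 lies on chromosome 8 (29333062 to 29350750, minus strand), 9.06 Mb from FGFR1. Per library DUSP5 exceeded DUSP4 8.88- to 18.2-fold.

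The cytoplasmic phosphatase genes were low as well. DUSP6, the enzyme most often used as a marker of ERK activity, had 2.71, 4.54 and 3.09 TPM on 91, 154 and 123 counts (chromosome 12, 89347825 to 89352859, minus strand), with replicate 2 above the others. An antisense gene, AC024909.2 in GENCODE, overlaps exons of DUSP6. Whether the counting used strand was not given in the sources used here, so reads of the antisense gene could be among them. DUSP7, its close relative, had 5.995, 5.24 and 4.77 TPM on 192, 169 and 181 counts (chromosome 3, 52048921 to 52056445, minus strand). DUSP5 exceeded DUSP7 4.77 ± 1.23-fold and DUSP6 7.50 ± 1.76-fold, in 3 of 3 libraries in each case. The size of these folds depends on the length used. With annotated exon lengths DUSP5 was at 33.0, DUSP7 at 4.17 and DUSP6 at 3.46 TPM.

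**Figure D2:**
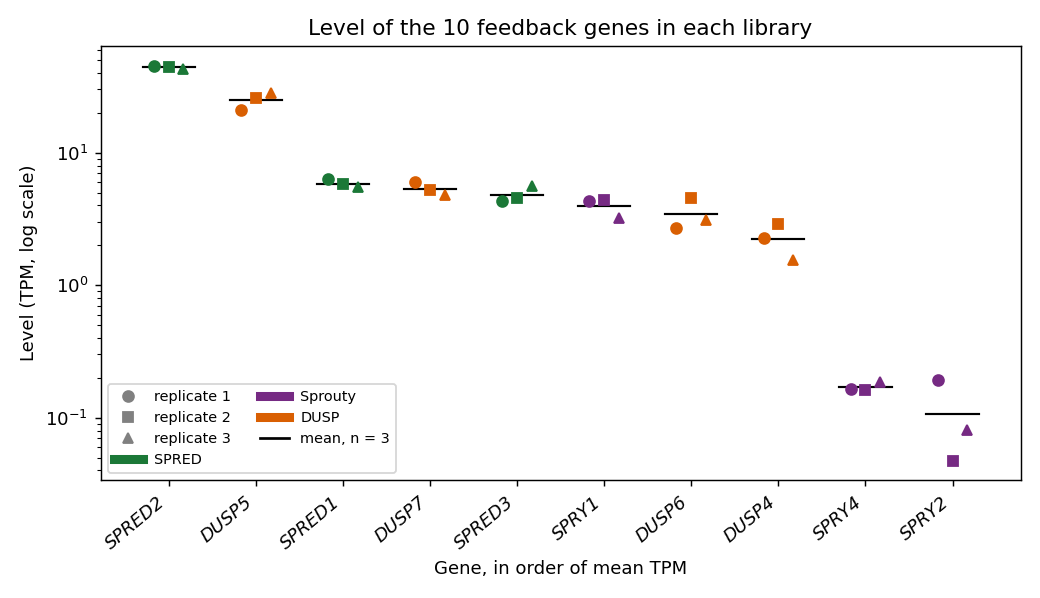
Each marker is the level of 1 gene in 1 library in TPM on a log scale, coloured by family, with the mean of the 3 libraries as a bar. SPRED2 and DUSP5 stand apart at the top, and SPRY4 and SPRY2 lie below 0.2 TPM. Between them 6 genes lie from 1.55 to 6.31 TPM, where the libraries of neighbours in the order overlap but those of more distant genes need not.

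In the order of mean level the genes ran SPRED2, DUSP5, SPRED1, DUSP7, SPRED3, SPRY1, DUSP6, DUSP4, SPRY4 and SPRY2. Of the 9 pairs of neighbours in this order, 3 had libraries that did not overlap: SPRED2 over DUSP5, DUSP5 over SPRED1 and DUSP4 over SPRY4. The log2 ratio within libraries was 0.84 ± 0.27 for SPRED2 over DUSP5, 2.08 ± 0.33 for DUSP5 over SPRED1 and 3.59 ± 0.54 for DUSP4 over SPRY4. Each had the same sign in 3 of 3 libraries and p = 0.25 in an exact permutation test that flips the sign per library (two-sided), the smallest that 3 libraries allow, so no pair could pass 0.05. Among the 6 genes from SPRED1 to DUSP4 the ranges of every pair of neighbours overlapped. Within libraries, SPRED1 over DUSP7, SPRED3 over SPRY1 and DUSP6 over DUSP4 still had the same sign in 3 of 3. Their p was also 0.25 in the same permutation test. DUSP7 over SPRED3 changed sign between libraries, with log2 ratios of 0.46, 0.21 and −0.23. SPRY1 over DUSP6 did so too, with 0.66, −0.042 and 0.062. The size of these ratios depends on the scale. Without division by length, on CPM, SPRED2 over DUSP5 was 1.71 and DUSP5 over SPRED1 0.56, and with 1 TPM added DUSP4 over SPRY4 was 1.45, all in the same direction. Some of the middle pairs changed direction with the gene length. With the longest coding transcript as length DUSP6 over DUSP4 went from 0.63 to −0.15, with annotated exon lengths DUSP7 over SPRED3 went from 0.15 to −0.48, and DUSP4 itself rested on a deposited length of 7341 bases against 5537 in that transcript.

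Chromosomal position and gene structure were not shared. The 10 genes lie on 10 different chromosomes. SPRED2 and SPRED1 span 121672 and 104399 bases and the other SPRED gene 9684, whereas DUSP6 and SPRY2 span 5035 and 4975 bases. Merged exons numbered 7 in SPRED1 and in SPRED2, 3 in DUSP6 and in DUSP7, and 2 in SPRY2.

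Of the related phosphatase genes outside the 10, DUSP1, DUSP2 and DUSP16 lay above DUSP5 in mean level and DUSP9 below 1 TPM. DUSP1 and DUSP2, nuclear enzymes induced by growth factors and stress, stood at 219 ± 115 and 87.0 ± 44.8 TPM. DUSP1 had 91.7, 316 and 248 TPM and DUSP2 54.8, 68.0 and 138 TPM in replicates 1, 2 and 3. Each exceeded DUSP5 in every library, DUSP1 by 4.40- to 12.3-fold and DUSP2 by 2.63- to 4.89-fold. Of the phosphatases that prefer JNK and p38, DUSP16 reached 37.4 ± 2.58 TPM, DUSP10 14.9 ± 2.83 TPM and DUSP8 8.77 ± 0.613 TPM, the last rising to 34.9 TPM with the exon length of the annotation. DUSP9, the third cytoplasmic ERK phosphatase gene, had 15, 9 and 8 counts.

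The lists of upstream components had higher medians than the 10 inhibitors (4.40 TPM), though their range overlapped that of the inhibitors. FGFR4 stood at 1034 ± 267 TPM and FGFR1 at 88.0 ± 3.86 TPM, so that SPRED2 was 0.0446 ± 0.0112 of FGFR4 and 0.503 ± 0.0343 of FGFR1 per library. With annotated exon lengths SPRED2 (54.5 TPM) and FGFR1 (54.8 TPM) were nearly level, so the latter ratio depends on the length used. FGFR3 was at 4.53 ± 0.0981 TPM. All 8 adaptor and exchange factor genes were detected (median 32.0 TPM), led by GRB2 at 161 ± 1.24 TPM, PTPN11 at 159 ± 6.93 TPM and SHC1 at 108 ± 7.61 TPM. Of the 11 genes of RAS, RAF, MEK and ERK all were detected (median 62.5 TPM), with MAP2K2 at 161 ± 6.71 TPM, NRAS at 138 ± 7.22 TPM and MAPK3, which codes for ERK1, at 123 ± 8.22 TPM. The order within these lists depends on the length used. With annotated exon lengths PTPN11 (204 TPM) lay above GRB2 (155 TPM). MAP2K2 (73.0 TPM) then lay below NRAS (189 TPM) and MAPK3 (88.6 TPM).

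Partners of the inhibitors were present. NF1, through whose product SPRED proteins act, stood at 42.8, 40.8 and 39.2 TPM, and SPRED2 over NF1 was 1.06, 1.09 and 1.09. With the exon length of the annotation SPRED2 was at 54.5 and NF1 at 27.4 TPM, so that this near equality holds for the deposited lengths only. Of 8 genes of RAS GTPase-activating proteins 7 were detected (median 28.9 TPM), with DAB2IP at 78.0 ± 5.15 TPM, RASA1 at 77.6 ± 7.13 TPM and RASA3 at 48.9 ± 3.29 TPM highest. Of 12 partners of Sprouty and SPRED proteins 11 were detected (median 33.3 TPM), led by the phosphatase 2A genes PPP2CA at 338 ± 19.4 TPM and PPP2R1A at 312 ± 16.7 TPM and by LZTR1 at 96.5 ± 6.51 TPM. With annotated exon lengths RASA1 (90.4 TPM) lay above DAB2IP (71.1 TPM), and LZTR1 (63.7 TPM) was nearly level with TESK1 (64.8 TPM). CBL stood at 13.9 ± 1.05 TPM and CAV1 had 5 to 6 counts.

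Other feedback inhibitors ranged widely. The 8 genes of that list had a median of 19.5 TPM and all were detected, with PEA15, whose product holds ERK in the cytoplasm, at 130 ± 7.09 TPM, ERRFI1, an inhibitor of ERBB receptors, at 79.0 ± 7.72 TPM and LRIG1 at 25.3 ± 0.995 TPM. IL17RD, an antagonist of FGF receptors, was at 4.63 ± 0.378 TPM, and PHLDA1 at 0.392 ± 0.192 TPM. Among the transcription factors of ERK target genes (12 genes, 8 detected, median 19.98 TPM), the repressor genes ERF at 124 ± 14.3 TPM and ATXN1L at 47.8 ± 1.69 TPM and the activator gene SRF at 62.2 ± 5.86 TPM were highest, and the repressor gene CIC followed at 43.9 ± 0.895 TPM. The ETS activator genes ETV4 and ETV5, which like SPRY4 and DUSP6 are known targets of FGF signalling, had 2 to 6 and 7 to 14 counts. ETV1 had 0, 0 and 2 counts and ETS1 none, where a count of 0 allows up to 3 counts in a library (one-sided limit, unlike the two-sided intervals above).

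**Figure D3:**
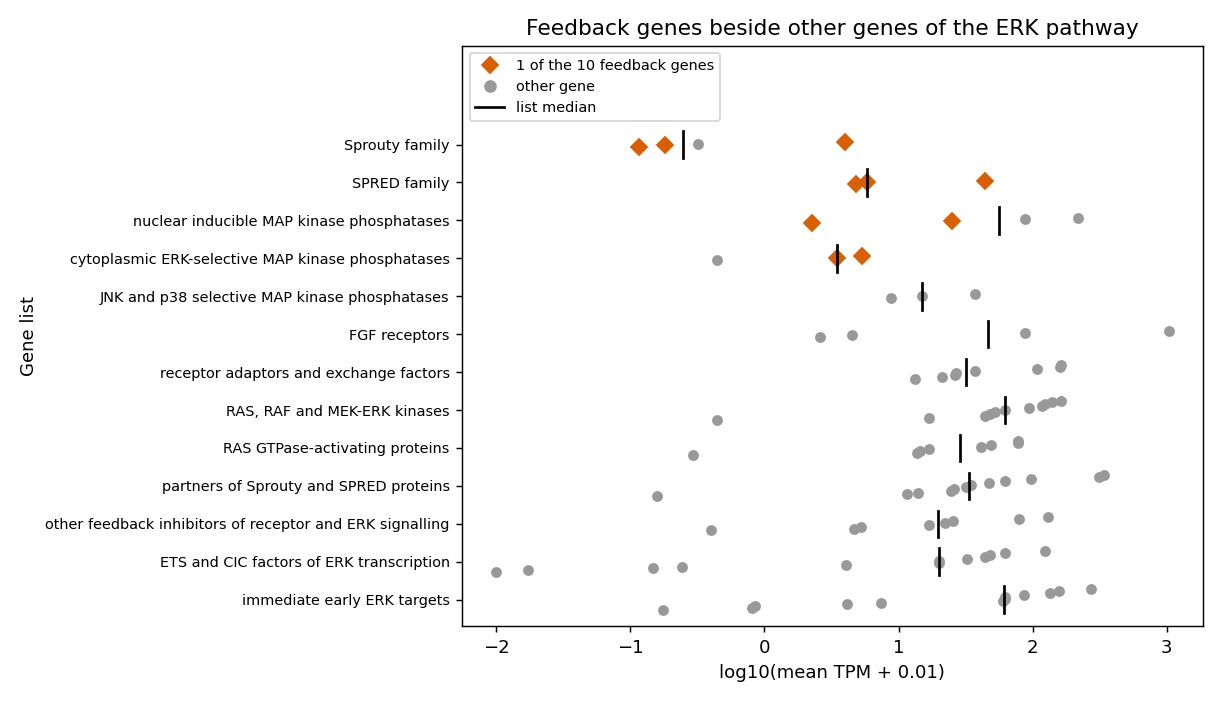
Each point is 1 gene, placed by log10 of its mean TPM plus 0.01 and grouped by list, with the 10 feedback genes as diamonds and the list median as a bar. The Sprouty list has the lowest median (0.239 TPM), and the kinase, adaptor and partner lists have medians from 32.0 to 62.5 TPM.

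Between replicates none of the 8 feedback genes that passed the filter on low counts was called as varying more than genes of like expression. In edgeR, with counts set against a trended negative binomial dispersion, 0 of the 8 had a Benjamini-Hochberg adjusted p under 0.05, while 1.31% of 14453 genes did. The unadjusted p was under 0.05 for 2 of them, DUSP4 (0.0230) and DUSP5 (0.0422), with adjusted p of 0.551 and 0.764, and it was under 0.05 for 878 of the 14453 genes. With DESeq2 size factors the count was also 0. SPRY2 and SPRY4 were too low to be tested. As no member was called, no genes of like pattern were sought.

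Set against sampling noise alone, 4 of the 8 varied, DUSP4, DUSP5, DUSP6 and SPRED3, where 41.6% of all tested genes did. Counts scaled by TMM-adjusted library totals (CPM, not divided by length) were 6.17, 7.97 and 4.40 for DUSP4 (edgeR Poisson adjusted p = 2.35e-06), with replicate 3 lowest. DUSP5 had 19.5, 24.4 and 27.6 CPM (adjusted p = 2.72e-08). DUSP6 had 3.40, 5.79 and 4.04 CPM (adjusted p = 0.000508), and SPRED3 8.35, 8.80 and 11.2 CPM (adjusted p = 0.00336). Each of these calls rested on 1 library: the adjusted p was 0.0563 for DUSP5 without replicate 1, 0.344 for DUSP6 without replicate 2, and 0.848 for SPRED3 and 0.111 for DUSP4 without replicate 3. Over all genes the number called went from 6017 to 1180 without replicate 3. SPRED2 (78.0, 77.6 and 76.6 CPM, adjusted p = 0.867), SPRED1 (0.408), DUSP7 (0.297) and SPRY1 (0.105) did not pass.

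The ratio of the highest to the lowest library was 1.02 for SPRED2, and 3.73% of the 723 genes of like CPM had a smaller ratio. It was 1.81 for DUSP4, 1.70 for DUSP6 and 1.41 for DUSP5, above 95.3%, 91.4% and 95.7% of genes of like CPM. For SPRED1, DUSP7, SPRY1 and SPRED3 it ran from 1.11 to 1.34.

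**Figure D4:**
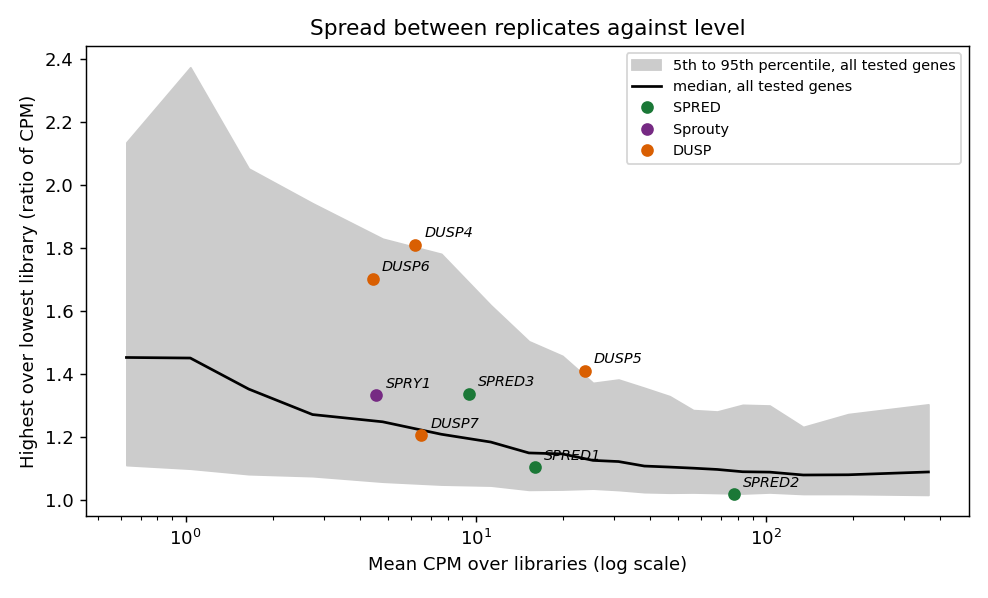
Points give, for the 8 tested feedback genes, the ratio of the highest to the lowest library in CPM against the mean CPM on a log scale, over the median (line) and the 5th to 95th percentile (band) of all tested genes in 20 bins. DUSP4 (1.81) and DUSP5 (1.41) lie near the upper edge of the band and SPRED2 (1.02) near its lower edge.

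Immediate early genes, which ERK signalling induces rapidly, differed between these libraries. Of 12 such genes 9 were tested, and 8 were called against genes of like expression (background 1.31%), all lowest in replicate 1: EGR1, FOS, FOSB, JUN, JUNB, IER2, IER3 and ZFP36. EGR1 had 16.7, 395 and 402 TPM (edgeR adjusted p = 6.82e-136) and the summed level of the 12 genes ran from 350 to 1138 TPM. That sum depends on the gene lengths, as the mean of IER3 went from 62.1 to 467 TPM with annotated exon lengths. DUSP1 (adjusted p = 3.35e-26) and DUSP2 (6.77e-16) were called too and were lowest in replicate 1. FGFR4, at 861, 900 and 1341 TPM, was also called (adjusted p = 0.00176) and was highest in replicate 3. Of the 8 tested feedback genes DUSP5, DUSP6 and SPRED3 were lowest in replicate 1 on CPM. SPRED2, SPRED1, DUSP7, SPRY1 and DUSP4 were lowest in replicate 3. SPRY4, with 9, 9 and 12 counts, was lowest in replicate 1 on CPM but in replicate 2 on TPM. The share of all genes that were lowest in replicate 1 was not counted. The part of these library differences in the values of the feedback genes was not tested.

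**Figure D5:**
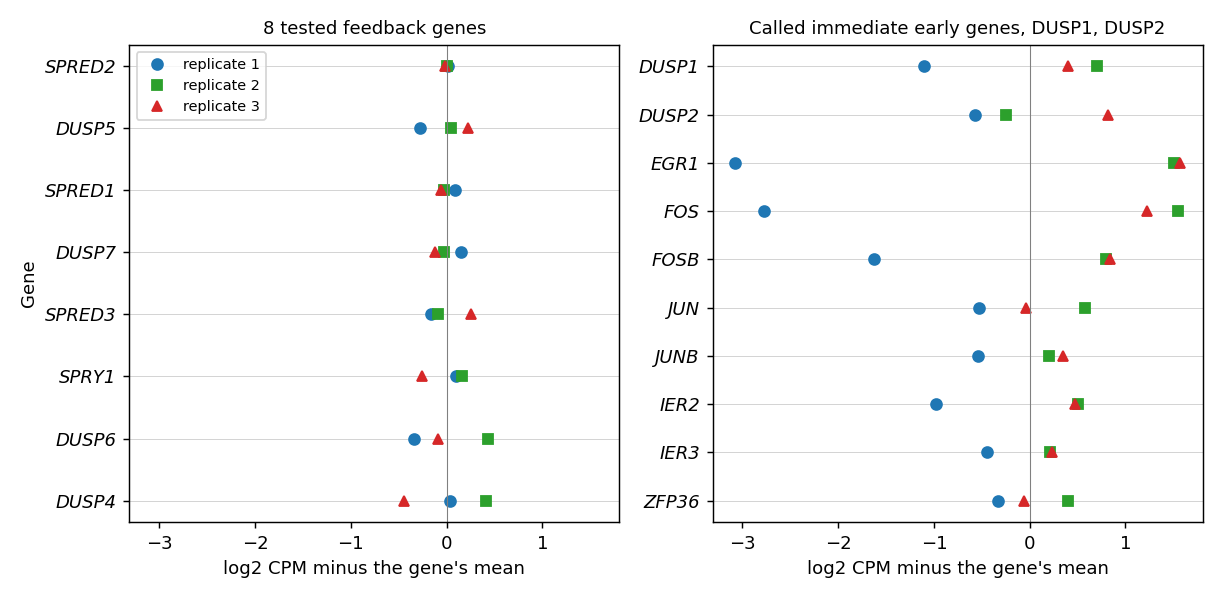
Each marker is the log2 CPM of 1 gene in 1 library minus that gene's mean over the 3 libraries, for the 8 tested feedback genes (left) and for the immediate early genes that were called with DUSP1 and DUSP2 (right), on the same axis. The feedback genes stay within 0.5 of their mean, while replicate 1 lies far to the left for EGR1 and FOS.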

How the data were processed

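Poly-A RNA libraries from 3 replicates of 1 group were analysed. The deposited values are estimated counts per gene with a gene length; the build hg38 and the tools featureCounts, Subread and TopHat are named per the submitters' processing notes, without strand or multi-match settings. TPM came from the deposited counts and lengths. Of 26485 entries, 23758 matched RefSeq by symbol, 1536 by synonym and 1191 not. GENCODE 29 gave other lengths and overlaps.

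For spread, counts were rounded and analysed in edgeR 4.0.16 (R 4.3.3) with TMM, filterByExpr and an intercept; the deviance (2 degrees of freedom) was tested by chi-square with trended or zero dispersion and Benjamini-Hochberg adjustment over all genes. DESeq2 1.42.0 gave other size factors. Ratios used 0.01 TPM added. The procedure was tested on simulated data. No protein table was used here, so protein comparisons were not made.

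The members, lists and motifs were chosen with earlier results of these data known. Named were all members, the 3 highest genes of each list, and list genes called for spread. SPRY3, DUSP8, DUSP9, CBL, CAV1, NF1, IL17RD, PHLDA1, CIC, ETV1, ETV4, ETV5 and ETS1 were named after their values were seen.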

Additional observations from a re-analysis of the deposited data

How the results depend on the processing

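The trended test called 0 of the members under every alternative run (DESeq2 size factors, no filter, common dispersion, and without each replicate), and 8 were detected under each except a minimum of 1 count, which gave 10. The median rank of the 10 among protein-coding genes, 10392.5, became 10213 on CPM and 10218.5 with the longest coding transcript as length, an alternative chosen after seeing the data. Neighbours whose libraries did not overlap were counted only where the gene ranked higher in the main order lay above. They numbered 3, and 6 on CPM, 6 with annotated exon lengths, 5 with the longest transcript, and 4 to 7 without 1 replicate, where fewer libraries are compared. Reversed pairs were left out, such as DUSP7, which lay below SPRED3 on CPM without overlap. The log2 ratio of DUSP7 over SPRED3, 0.15, turned to −0.53 on CPM, −0.48 with annotated exons, −0.017 with the longest transcript, and ran from −0.0082 (without replicate 1) to 0.34. DUSP6 over DUSP4, 0.63, turned to −0.48 on CPM and −0.15 with the longest transcript. Against sampling noise, 2 to 3 members were called without 1 replicate, and genes called in all fell from 6017 to between 1180 (without replicate 3) and 5453; against like genes they fell from 190 to 94, 67 and 25 without replicates 1, 2 and 3. The cause was not tested. Counts of 1 to 12 limit SPRY2 and SPRY4.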
